A study of Mus musculus with 14 samples.

Results

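Cholesterol synthesis and its transcriptional control were followed through 8 genes in mouse kidney after renal ischemia/reperfusion injury (IRI). The genes were Srebf2, which encodes the transcription factor SREBP2, its negative regulator Insig1, and the pathway enzymes Hmgcs1, Idi1, Fdft1, Sqle, Lss and Cyp51. They were chosen by symbol from 24411 gene symbols counted in each library, and all 8 were among the 14300 genes tested. Bulk RNA sequencing covered whole kidneys of male C57/B6 mice of 8 weeks, with 4 libraries at day 0, 5 at day 1 and 5 at day 3. Day 1 and day 3 refer to time after renal IRI, while the day 0 kidneys are called controls by the depositors and whether those mice had a sham operation is not given in the sources used here. No transgene, knockdown or drug is named for any of the 3 groups. The labels do not say that the libraries of a group came from separate animals, so p-values measure the spread between these libraries.

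Cells make cholesterol from acetyl-CoA through the mevalonate pathway, whose products are joined into squalene, closed into lanosterol and then trimmed to cholesterol. When sterols are scarce in the endoplasmic reticulum, SCAP escorts SREBP2 to the Golgi, where proteolysis releases the fragment that switches on the enzyme genes. When sterols are plentiful, the INSIG proteins hold SCAP and SREBP2 back, and Insig1 is itself an SREBP target. In the kidney, the tubular epithelium both makes cholesterol and takes up lipoproteins, and tubular cholesterol is known to change after acute injury.

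Between 12485579 and 20476979 reads per library were assigned to genes, and the members had 77 to 11752 reads per library. Levels are given as CPM, the read count of a gene scaled to the size of its library by the trimmed mean of M-values (TMM), and a gene was called changed at an adjusted p under 0.05 in edgeR's quasi-likelihood test with Benjamini-Hochberg adjustment over all tested genes. The libraries of day 1 and day 3 carry file numbers of 1 digit or of 3 digits, a difference between files that may be technical and that is no condition of the study. All 4 day 0 libraries have 1-digit numbers, as do replicates 3, 4 and 5 of day 1 and replicates 4 and 5 of day 3. Because no 3-digit library exists at day 0, day and file number format cannot be told apart for the 3-digit libraries. The kidney origin was checked with 7 proximal tubule markers, all of which were detected, with a summed level of 18025 to 20207 CPM at day 0. Markers of the adrenal cortex, a cholesterol-rich neighbour of the kidney, summed to at most 3.60 CPM in any library, with Cyp11b2 at 0 in all 14. Liver markers summed to 38.4 to 166 CPM at day 0, 1.77 to 8.30 CPM at day 1 and 2.08 to 5.36 CPM at day 3.

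The stretches just upstream of the start sites are shown because SREBP2 acts through short sterol regulatory elements there, together with the factor NF-Y. Promoter windows of 300 bases from RefSeq (GRCm38.p6) were matched for 6 of the 8 members, all but Sqle and Fdft1. The motifs searched on both strands were TCACNCCAC for the sterol regulatory element, CCAAT for NF-Y and CACGTG for E-box factors. The printed stretches are limited to bases upstream of both the RefSeq and the GENCODE starts, in the 4 members with a match there, and read 5′ to 3′ on the strand of the gene, with matches to the NF-Y box and to the first 8 letters of the sterol element, or all of it, in capitals (ATTGG is CCAAT read from the opposite strand). They cover chr13:119690101-119690350 on the plus strand for Hmgcs1, chr15:82147019-82147180 on the plus strand for Srebf2, chr5:28071162-28071362 on the plus strand for Insig1 and chr10:76531355-76531587 on the plus strand for Lss.
Hmgcs1: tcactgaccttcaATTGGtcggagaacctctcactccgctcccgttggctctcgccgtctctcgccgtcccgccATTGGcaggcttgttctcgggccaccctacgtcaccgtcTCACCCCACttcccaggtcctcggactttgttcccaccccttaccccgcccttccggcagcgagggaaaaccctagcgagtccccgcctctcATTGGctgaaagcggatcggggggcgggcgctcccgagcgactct
Srebf2: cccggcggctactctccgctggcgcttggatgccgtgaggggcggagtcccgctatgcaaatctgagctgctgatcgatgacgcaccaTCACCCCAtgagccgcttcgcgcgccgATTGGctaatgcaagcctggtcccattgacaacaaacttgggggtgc
Insig1: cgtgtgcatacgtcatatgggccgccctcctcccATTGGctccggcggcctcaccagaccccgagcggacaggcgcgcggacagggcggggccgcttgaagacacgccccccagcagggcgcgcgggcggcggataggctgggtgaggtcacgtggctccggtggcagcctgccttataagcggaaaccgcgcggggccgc
Lss: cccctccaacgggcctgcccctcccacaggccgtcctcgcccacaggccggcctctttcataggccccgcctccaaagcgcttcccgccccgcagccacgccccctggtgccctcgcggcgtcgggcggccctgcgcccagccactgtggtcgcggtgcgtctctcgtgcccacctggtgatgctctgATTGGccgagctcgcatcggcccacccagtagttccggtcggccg

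The full sterol element TCACNCCAC was found in 1 of the 6 windows, that of Hmgcs1, against 1.24% of 32851 mouse promoter windows of the same length. A shorter form, TCACNCCA, which was chosen after the sequences had been seen and also covers the full one, was found in the windows of Hmgcs1 and Srebf2, against 4.36% of all windows. The CCAAT box was found in 6 of 6 windows, with 4 copies in that of Hmgcs1, against 37.4% of all windows. The E-box CACGTG was found in the Insig1 window only, against 7.15% of all windows. These are matches of letters in a short window and say nothing of binding in these kidneys.

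SREBP2 itself is considered first. Srebf2 (chr15:82147181-82205379, plus strand, GENCODE vM21, GRCm38; it hosts the microRNA gene Mir33) had 80.5, 71.8, 69.3 and 71.7 CPM in the 4 day 0 libraries. At day 1 it had 72.1, 73.8, 90.6, 103 and 91.1 CPM, and at day 3 it had 53.2, 89.7, 54.2, 75.7 and 102 CPM. The day 0 libraries lay close together, and the day 3 libraries spread to both sides of them. The log2 fold change was 0.23 (SE 0.19, adjusted p = 0.331) at day 1 and 0.03 (SE 0.19, adjusted p = 0.912) at day 3. The transcript of the factor thus passed the test on neither day with all libraries, while with only 1-digit files the day 1 value was 0.41 and passed (adjusted p = 0.0124). The counts do not measure SREBP2 cleavage.

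Insig1 (chr5:28071363-28078662, plus strand), which retains the SCAP and SREBP2 complex, had 69.0, 40.0, 61.0 and 37.9 CPM at day 0. It had 14.7, 11.2, 23.9, 18.2 and 20.2 CPM at day 1, and 31.5, 32.9, 20.5, 53.4 and 21.9 CPM at day 3. All day 1 libraries were below all day 0 libraries, whereas day 3 overlapped both other groups. Insig1 fell at day 1 to 33.9% of its day 0 level (log2 fold change -1.56, SE 0.29, adjusted p = 0.00111). At day 3 the log2 fold change was -0.70 (SE 0.29, adjusted p = 0.0760). Without replicate 4, the highest day 3 library, the day 3 value was -0.96 and passed (adjusted p = 0.0175).

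Hmgcs1 (chr13:119690379-119708260, plus strand) makes HMG-CoA, an early intermediate of the mevalonate pathway. It was the most abundant member, with 648, 692, 640 and 645 CPM at day 0. It had 201, 269, 333, 169 and 235 CPM at day 1, and all 5 libraries were below every day 0 library. At day 3 it had 251, 603, 533, 233 and 107 CPM, with replicates 2 and 3 just under the day 0 range and the other 3 far under it. Hmgcs1 fell at day 1 to 36.8% of day 0 (log2 fold change -1.44, SE 0.38, adjusted p = 0.00787). At day 3 the log2 fold change of -0.93 (SE 0.38, adjusted p = 0.0706) did not pass, although the groups did not overlap. It passed without day 3 replicate 2 (-1.22, adjusted p = 0.0162) and without day 3 replicate 3 (-1.17, adjusted p = 0.0354).

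Idi1 (chr13:8885501-8892451, plus strand) encodes the isomerase that interconverts the isoprenoid building blocks of squalene. It had 34.5, 37.1, 32.8 and 41.3 CPM at day 0, and 7.76, 11.7, 15.7, 6.0 and 11.9 CPM at day 1. The day 3 libraries had 3.92, 18.1, 10.2, 9.82 and 5.80 CPM. No later library reached the lowest day 0 library. Idi1 fell to 29.1% of day 0 at day 1 (log2 fold change -1.78, SE 0.36, adjusted p = 0.00184). At day 3 it was at 26.3% (-1.92, SE 0.36, adjusted p = 0.00158). Processed pseudogenes share its sequence, with 100% identity over 684 bases for Gm13502, so reads that also fit there may be missing from the count and its level is uncertain.

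Cyp51 (chr5:4081145-4104746, minus strand) encodes lanosterol demethylase, the first step after ring closure. It had 368, 308, 402 and 307 CPM at day 0, then 41.8, 35.5, 108, 88.9 and 112 CPM at day 1. The day 3 libraries had 17.9, 71.0, 35.2, 28.1 and 29.9 CPM. Every later library was below every day 0 library by a wide margin. Cyp51 fell to 22.3% of day 0 at day 1 (log2 fold change -2.17, SE 0.39, adjusted p = 0.000869). At day 3 it was at 10.5% (-3.25, SE 0.41, adjusted p = 0.000108), the largest log2 fold change of the 8 members on either day.

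Lss (chr10:76531588-76557138, plus strand) encodes lanosterol synthase, which closes the sterol rings. It had 31.7, 25.9, 23.2 and 28.5 CPM at day 0 and 20.7, 20.5, 14.1, 11.0 and 10.7 CPM at day 1. On day 3 the levels were 14, 24.8, 16.1, 25.6 and 22.3 CPM. The day 1 libraries were all below day 0, and 2 of the 5 day 3 libraries lay inside the day 0 range. Lss fell to 56.5% at day 1 (log2 fold change -0.82, SE 0.24, adjusted p = 0.0131), but with only 3-digit files of the later days the value was -0.40 and did not pass (adjusted p = 0.169). The day 3 value was -0.41 (SE 0.24, adjusted p = 0.193), and with only 3-digit files it was -0.58 and passed (adjusted p = 0.0457).

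Sqle (chr15:59315077-59331192, plus strand) encodes squalene epoxidase, the oxygen-dependent step before ring closure. It had 35.3, 30.4, 28.8 and 50.7 CPM at day 0, then 28.4, 42.9, 15.7, 15.9 and 15.0 CPM at day 1. Day 3 gave 20.9, 44.2, 34.1, 16.6 and 16.6 CPM. The later libraries formed a low set of 15.0 to 16.6 CPM and a scattered set of 20.9 to 44.2 CPM, and the low set held every 1-digit library of both days. The pooled log2 fold changes of -0.62 at day 1 (SE 0.36, adjusted p = 0.180) and -0.45 at day 3 (SE 0.36, adjusted p = 0.344) did not pass. Without day 1 replicate 2 the day 1 value was -0.95 and passed (adjusted p = 0.0316). With file number format as a term both days passed (-1.18 and -1.19, adjusted p = 0.000863 and 0.00194). Here and below, that term assumes 1 format effect shared by day 1 and day 3.

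Fdft1 (chr14:63145150-63179578, minus strand) encodes squalene synthase, the first committed step towards sterols. It had 32.3, 24.7, 28.9 and 28.3 CPM at day 0 and 35.9, 32.9, 36.0, 37.3 and 41.8 CPM at day 1. Levels at day 3 were 27.1, 28.1, 25.4, 40.7 and 36.1 CPM. All day 1 libraries were above all day 0 libraries, the reverse of the order seen for Hmgcs1, Idi1, Lss and Cyp51. The log2 fold change was 0.36 at day 1 (SE 0.15, adjusted p = 0.0644) and 0.14 at day 3 (SE 0.15, adjusted p = 0.490). The day 1 value passed without day 3 replicate 4 (0.37, adjusted p = 0.0407) or without day 3 replicate 5 (0.40, adjusted p = 0.0439). It also passed with file number format as a term (0.50, adjusted p = 0.00356), only 1-digit files (0.46, adjusted p = 0.00652) or only the 2 days compared (0.38, adjusted p = 0.0259). Fdft1 shares 774 exonic bases with Ctsb on the opposite strand, which the strand-specific counts keep apart, and a processed pseudogene, Gm6781, has 97.4% identity to it over 1249 bases, so its count is uncertain for reads that fit both.

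**Figure D1:**
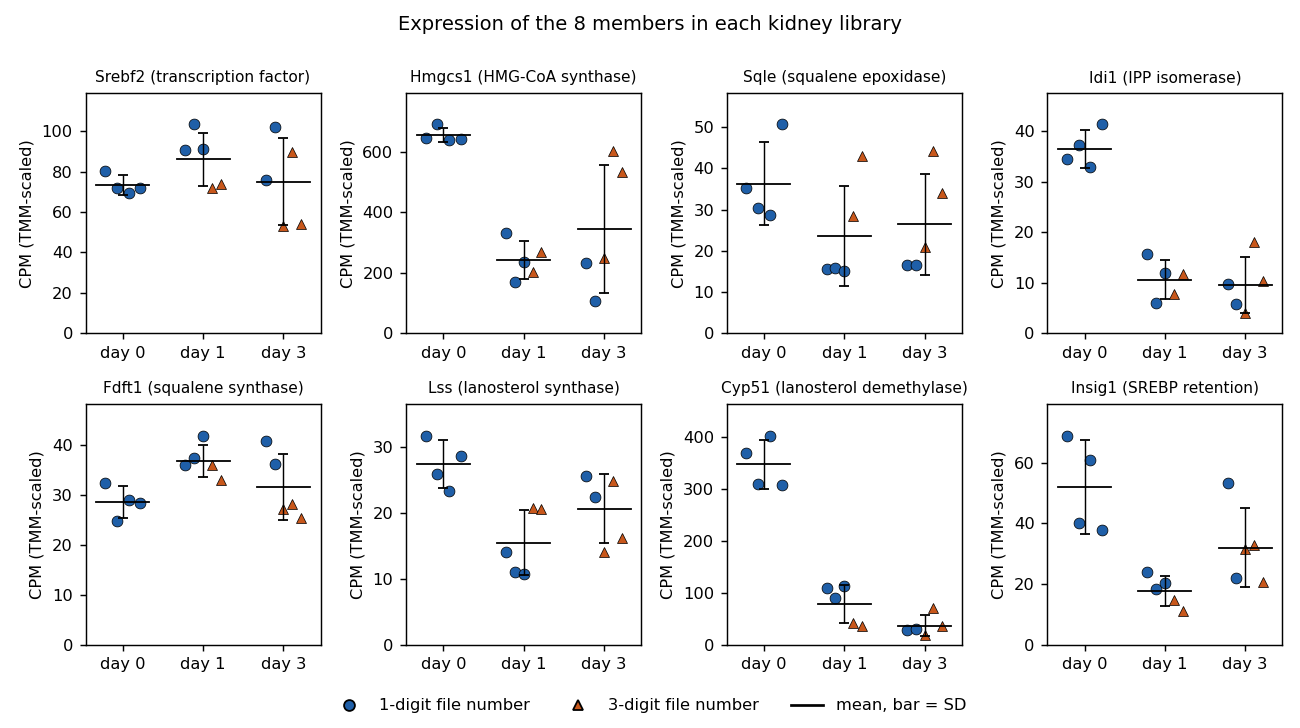
CPM (TMM-scaled) of each member in each library by day, on linear axes from 0, with circles for 1-digit and triangles for 3-digit file numbers, a line for the group mean and a bar for the SD. Cyp51 and Idi1 were low in every library of day 1 and day 3, Hmgcs1 spread from 107 to 603 CPM at day 3, and Srebf2 and Fdft1 stayed near or above their day 0 levels at day 1.

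At day 1 against day 0, 5 of the 8 members were called, and all 5 were lower (Hmgcs1, Idi1, Lss, Cyp51 and Insig1). Among all genes tested, 42.1% were called in this comparison and 18.7% were called lower. The same 5 members were below day 0 in every library, and Fdft1 was above it in every library. Over all tested genes, 20.5% had groups that did not overlap with day 1 lower and 21.5% with day 1 higher.

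At day 3 against day 0, 2 of the 8 members were called, Idi1 and Cyp51, both lower. The background was 33.3% of genes called and 13.8% called lower. Hmgcs1, Idi1 and Cyp51 had all day 3 libraries below day 0, against 16.5% of all genes. Both later days were compared with the same 4 day 0 libraries, so the comparisons are not independent of each other. The median log2 fold change of the 8 members was -1.13 at day 1 and -0.58 at day 3, beside 0.01 and 0.05 over all genes.

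Day 3 was also compared with day 1 directly. Only Insig1 was called, higher at day 3 by 1.82-fold (log2 fold change 0.86, SE 0.28, adjusted p = 0.0484), against a background of 15.9% called and 8.52% called higher. The groups overlapped, and the call was lost in 11 of the 14 fits that left out 1 library (adjusted p 0.0311 to 0.127 over all 14). The lowest value was 0.60, without day 3 replicate 4. Cyp51 had a log2 fold change of -1.08 (SE 0.37, adjusted p = 0.0592). It passed without day 1 replicate 1 (-1.25, adjusted p = 0.0348), day 1 replicate 2 (-1.26, adjusted p = 0.0209) or day 3 replicate 2 (-1.47, adjusted p = 0.0133), and with DESeq2 (-1.12, adjusted p = 0.0181). The value was -1.84 (adjusted p = 7.96e-05) with only 1-digit files and 0.095 (adjusted p = 0.900) with only 3-digit files of the later days. The other 6 members had log2 fold changes of -0.23 to 0.52, none of which passed.

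Levels between genes were compared per kilobase of exon, counting every base that lies in an exon of any annotated transcript (GENCODE vM21). This length was 10787 bases for Lss and from 3093 (Insig1) to 7184 (Srebf2) for the other members, and the order depends on it. In CPM, Lss averaged 27.3 and Fdft1 28.6 at day 0. At day 0 the order was Hmgcs1 (143 CPM per kilobase), Cyp51 (78.4), Insig1 (16.8), Idi1 (10.4), Srebf2 (10.2), Fdft1 (6.76), Sqle (6.55) and Lss (2.53). The ranges over the day 0 libraries overlapped between Idi1 and Srebf2 and between Fdft1 and Sqle, and did not overlap between the other neighbours. At day 3 Cyp51 had dropped to 8.25 CPM per kilobase. Its range of 4.06 to 16.1 overlapped those of Srebf2 (10.4), Insig1 (10.4), Fdft1 (7.45), Sqle (4.77) and Idi1 (2.73), and not those of Lss (1.91) and Hmgcs1. Hmgcs1 was still the highest member at day 3, at 75.2 CPM per kilobase, with a range of 23.3 to 131.

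The libraries of a day did not move as 1 block. The mean over the 8 members of the log2 difference from day 0 was -1.19 to -0.80 in the day 1 libraries and -1.47 to -0.44 in the day 3 libraries. The day 3 library nearest to day 0 was replicate 2, which had 603 CPM of Hmgcs1 and 44.2 CPM of Sqle. This library also had the highest level at day 3 of Lrp2, the endocytic receptor megalin of the proximal tubule (2570 CPM, other day 3 libraries 206 to 1397), and the lowest of Lcn2, a tubular injury marker (66.1 CPM, others 681 to 3403). Cyp51 in that library was still at 71.0 CPM, below the day 0 minimum of 307.

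**Figure D2:**
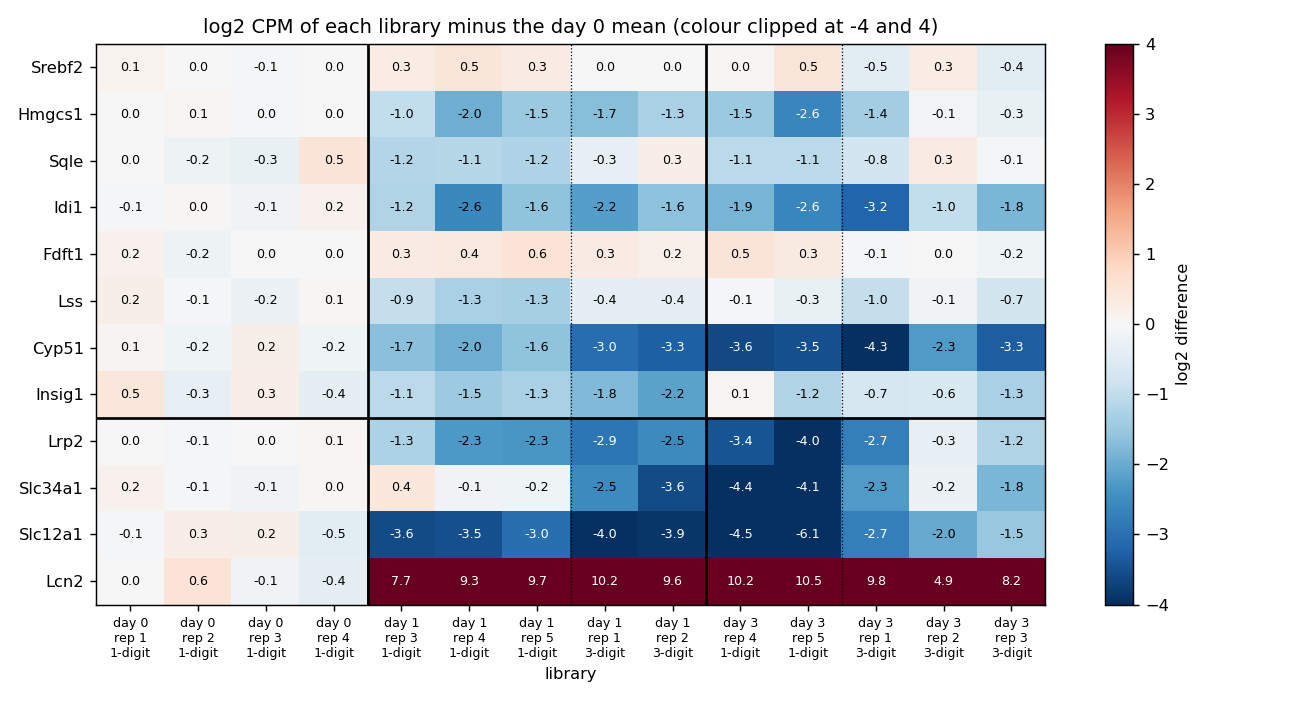
log2 CPM of each library minus the day 0 mean for the 8 members (above the line) and for Lrp2 and Slc34a1 (proximal tubule), Slc12a1 (thick ascending limb) and Lcn2 (tubular injury). Columns are libraries ordered by day and file number format, and colours are clipped at -4 and 4. Day 3 replicate 2 is the later library nearest to day 0 (mean of the members -0.44), while Cyp51 is low in all 10 later libraries.

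Markers of the nephron and of other cells moved over the same days. The summed level of the 7 proximal tubule markers was 18025 to 20207 CPM at day 0, 5130 to 19901 at day 1 and 3055 to 14878 at day 3, with 2 of 7 called lower at day 1 and 3 of 7 at day 3. The 3 thick ascending limb markers were all called lower on both days. The 4 tubular injury markers summed to 99.6 to 135 CPM at day 0, 883 to 5549 at day 1 and 967 to 4545 at day 3, with 3 of 4 called higher on both days. At day 3 against day 0, 3 of 3 proliferation markers and 3 of 4 fibroblast and pericyte markers were also higher, with medians of 3.52 and 1.64 on the log2 scale, and 2 of 3 collecting duct markers were lower. Of the 4 liver markers, 2 were tested, and 1 was called lower and 0 higher on both days. Their median log2 fold change was -2.21 at day 1 and -2.96 at day 3. The part of these shifts in the members' values was not tested. In bulk tissue, fewer cells of a type and less RNA per cell cannot be told apart.

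To see how far the members stand for their pathway, all 21 enzyme genes from acetyl-CoA to cholesterol were read, a list chosen with earlier results of these data known. At day 1, 10 of the 21 were lower and 0 were higher, with a median log2 fold change of -0.62 beside 0.01 over all genes. Of all genes, 18.7% were called lower in this comparison and 42.1% in either direction. At day 3, 9 were lower and 0 higher, with a median of -0.59 beside 0.05. Here 13.8% of all genes were called lower and 33.3% in either direction. By file number format some were higher, with 12 lower and 3 higher in the 1-digit and 8 lower and 3 higher in the 3-digit libraries of day 1, where 29.6% and 19% of all genes were called lower and 28.9% and 22.6% higher. Those of day 3 had 12 lower and 5 higher (1-digit) and 10 lower and 0 higher (3-digit), beside 25.1% and 13.3% of all genes called lower and 28.6% and 19.1% called higher. The summed level of the 21 enzymes was 2137 CPM ± 75.1 (SD, n = 4) at day 0, 1105 ± 152 (n = 5) at day 1 and 1148 ± 353 (n = 5) at day 3. Cyp51 made up 14.3% to 18.7% of that sum at day 0, 3.21% to 10.1% at day 1 and 1.83% to 4.26% at day 3. Hmgcs1 made up 29.2% to 32.2% at day 0, 17.3% to 24.6% at day 1 and 14.04% to 40.2% at day 3.

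Among the 8 mevalonate steps, from acetoacetyl-CoA to farnesyl diphosphate, 5 were lower at day 1 and 4 at day 3, against the 18.7% and 13.8% of all genes called lower. Mvd, which decarboxylates diphosphomevalonate, fell by 1.24 on the log2 scale at day 1 (adjusted p = 0.00907) and by 1.03 at day 3 (adjusted p = 0.0285). The day 3 call of Mvd was lost in 7 of the 14 fits that left out 1 library (adjusted p 0.00475 to 0.0663) and with file number format as a term (-0.94, adjusted p = 0.0855).

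Among the 13 steps from squalene synthase to cholesterol, 5 were lower at day 1 and 5 at day 3, read against the same shares of all genes. Dhcr7, which reduces 7-dehydrocholesterol in the last step of one branch, fell by 0.89 at day 1 (adjusted p = 0.0196) and by 1.09 at day 3 (adjusted p = 0.00959) on the log2 scale. Without day 0 replicate 1 the day 1 value was -0.83 and did not pass (adjusted p = 0.0553), nor did it with only 3-digit files of the later days (-0.58, adjusted p = 0.0767). Nsdhl, one of the enzymes that remove the methyl groups at carbon 4, fell by 0.76 at day 1 (adjusted p = 0.0104; adjusted p = 0.0623 with only 1-digit files), and Ebp, the sterol isomerase, fell by 0.78 at day 3 (adjusted p = 0.00535). The 15 enzymes outside the members had 6 lower and 0 higher at day 1, and 7 lower and 0 higher at day 3. Of all genes, 18.7% and 13.8% were called lower on these days, and 42.1% and 33.3% in either direction.

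**Figure D3:**
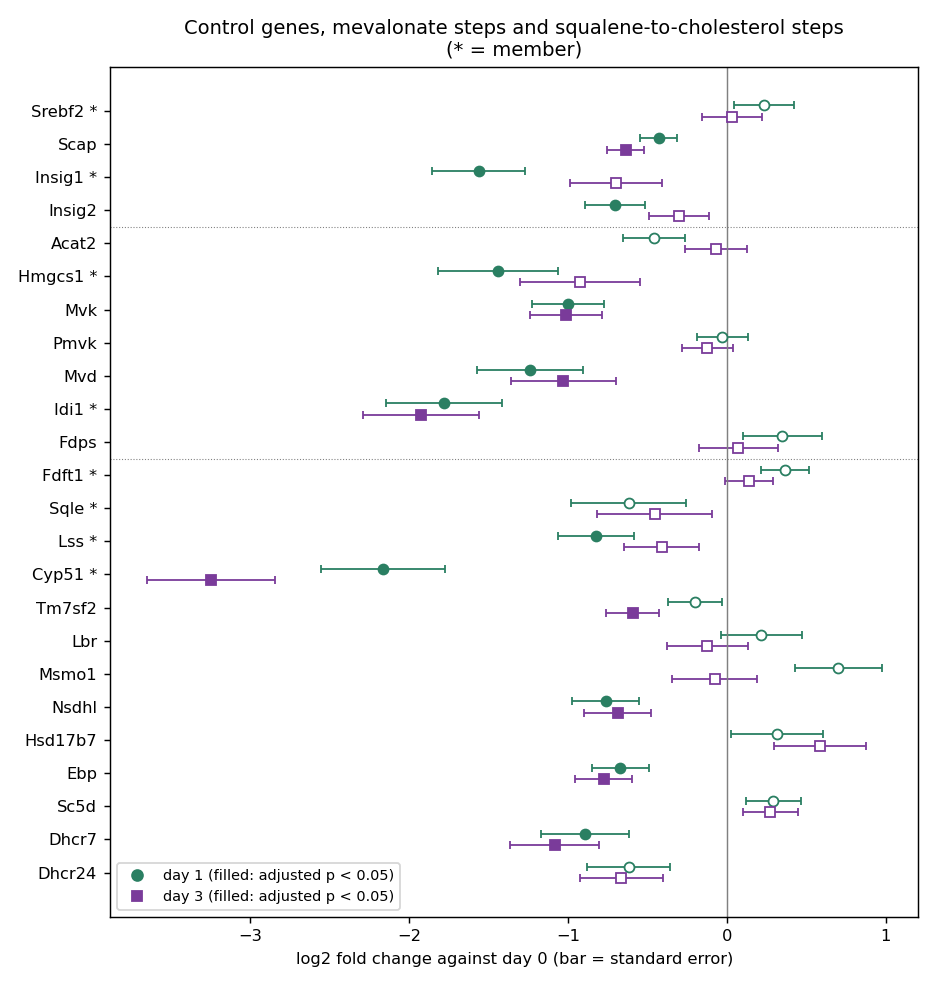
log2 fold change against day 0 (bars, standard error) of 4 control genes, 7 of the 8 mevalonate steps and 13 later steps in pathway order, for day 1 (circles) and day 3 (squares), filled where the adjusted p was under 0.05. Members carry an asterisk. The filled points lie left of 0, Cyp51 lies farthest left on both days, and Srebf2 and Fdft1 are open on both days.

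Srebf2 itself and the genes that control SREBP2 were read as a list of 6. At day 1, 4 were lower (Insig1, Insig2, Scap and the site-1 protease gene Mbtps1) and 0 higher, and at day 3, 2 were lower (Scap and Mbtps1), beside the 18.7% and 13.8% of all genes called lower. Insig2, the paralog of Insig1, had 57.0 to 62.1 CPM at day 0 and 24.5 to 51.0 CPM at day 1, a fall of 0.70 on the log2 scale (SE 0.19, adjusted p = 0.00907). With only 3-digit files of the later days the value was -0.28 and did not pass (adjusted p = 0.0690). At day 3 its log2 fold change was -0.30 (adjusted p = 0.232), which passed with the format term (-0.59, adjusted p = 0.00504), only 1-digit files (-0.41, adjusted p = 0.0194) or only the 2 days compared (-0.32, adjusted p = 0.0355). Scap fell by 0.64 at day 3 (SE 0.12, adjusted p = 0.00134). Mbtps1 fell by 0.77 at day 1 (adjusted p = 0.0177) and by 0.66 at day 3 (adjusted p = 0.0438), and the day 3 call was lost in 9 of the 14 fits that left out 1 library (adjusted p 0.00305 to 0.0981), with only 3-digit files (-0.38, adjusted p = 0.190), with library totals (-0.51, adjusted p = 0.119) and with only the 2 days compared (-0.68, adjusted p = 0.0522).

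Of 6 genes of sterol uptake and transfer, 1 was lower and 2 were higher at day 1, and 0 were lower and 1 higher at day 3, beside 42.1% and 33.3% of all genes called in either direction. Stard4, a sterol carrier, fell by 1.37 at day 1 on the log2 scale (SE 0.29, adjusted p = 0.00233). Npc1, which exports cholesterol from lysosomes, rose at day 1 (log2 fold change 1.22, SE 0.31, adjusted p = 0.00721), with 83.3 to 139 CPM in the 1-digit libraries and 34.4 and 48.0 CPM in the 3-digit ones. With only 3-digit files of the later days its value was 0.27 and did not pass (adjusted p = 0.180). Npc2, its soluble partner, was also called higher at day 1 (0.47), a call lost in 6 of the 14 fits that left out 1 library and with only 3-digit files of the later days (0.26, adjusted p = 0.256). It rose by 0.56 at day 3 (adjusted p = 0.0220), a call lost in 4 of the 14 fits that left out 1 library (adjusted p 0.0124 to 0.0692) and with only 3-digit files (0.39, adjusted p = 0.0806).

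File number format was then examined within each day. At day 1, 3 of the 8 members differed between the 2 3-digit and the 3 1-digit libraries, against 35% of all genes, with 18.6% higher in the 3-digit libraries and 16.4% lower. Sqle was higher in the 3-digit libraries (28.4 and 42.9 against 15.0 to 15.9 CPM, log2 difference 1.20, SE 0.29, adjusted p = 0.00740), and so was Lss (20.5 and 20.7 against 10.7 to 14.1 CPM, 0.79, SE 0.22, adjusted p = 0.0167). Cyp51 was lower there (35.5 and 41.8 against 88.9 to 112 CPM, -1.42, SE 0.39, adjusted p = 0.0146). In each of the 3 the formats did not overlap. Over all 8 members, the 3-digit libraries were lower without overlap in 4 and higher without overlap in 2. The shares over all genes were 29.4% with the 3-digit libraries lower and 31.2% with them higher. None of the 3 was called without day 1 replicate 2, and of the 3 Sqle alone was called without day 1 replicate 1. Lss was also not called without day 1 replicate 4 (adjusted p = 0.0529) or replicate 5 (adjusted p = 0.0538). The fits without day 1 replicate 1 or 2 leave 1 library of 3 digits at day 1, and those without day 3 replicate 4 or 5 leave 1 library of 1 digit at day 3, and the lone library is assumed to vary like the others. Srebf2 (-0.38, adjusted p = 0.168) passed without day 3 replicate 2 (-0.38, adjusted p = 0.0443).

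At day 3, 3 members differed between the 3 3-digit and the 2 1-digit libraries, against 18.5% of all genes (10.3% higher in the 3-digit libraries and 8.22% lower). Hmgcs1 was higher in the 3-digit libraries (251, 603 and 533 against 233 and 107 CPM, log2 difference 1.44, SE 0.39, adjusted p = 0.0263), as was Sqle (20.9 to 44.2 CPM against 16.6 CPM in both, 0.99, SE 0.30, adjusted p = 0.0396). Fdft1 was lower there (25.4 to 28.1 against 36.1 and 40.7 CPM, -0.52, SE 0.14, adjusted p = 0.0232). No member was called without day 3 replicate 3 or without day 3 replicate 5, and 1 was called without day 3 replicate 4. Sqle was lost in 7 of the 14 fits that left out 1 library (day 0 replicates 1 and 2, day 1 replicate 5 and day 3 replicates 2 to 5) and with limma voom (adjusted p = 0.0739). Without day 3 replicate 2, Hmgcs1 (1.21, adjusted p = 0.0758) and Sqle (0.73, adjusted p = 0.126) were not called. In that fit Srebf2 moved from -0.44 (adjusted p = 0.143) to -0.73 (adjusted p = 0.0158) and Lss from -0.39 (adjusted p = 0.225) to -0.67 (adjusted p = 0.0474). Without day 3 replicate 1, Cyp51 moved from 0.51 (adjusted p = 0.354) to 0.87 (adjusted p = 0.0261). Proximal tubule markers summed to 6653 to 14878 CPM in the 3-digit and 3055 to 4083 CPM in the 1-digit day 3 libraries. At day 1 the order of the proximal tubule sums was the other way, with 5130 to 6983 CPM in the 3-digit and 13751 to 19901 CPM in the 1-digit libraries. The 3 proliferation markers summed to 194 to 367 CPM in the 3-digit and 10.6 to 31.5 CPM in the 1-digit day 3 libraries, with 3 of 3 called higher. The 3 endothelial markers summed to 94.3 to 171 CPM against 259 and 434 CPM, with 3 of 3 called lower. Of the macrophage markers 3 of 5 were higher and 1 lower, of the thick limb markers 2 of 3 were higher, and of the fibroblast and pericyte markers 2 of 4 were lower, as were 1 of 4 tubular injury markers and the 1 adrenal cortex marker tested. At day 1, 4 of 7 proximal tubule markers were lower in the 3-digit libraries and 2 of 4 urothelium markers were higher, with summed levels of 11.4 and 85.4 CPM against 0.95 to 3.38 CPM. The collecting duct, thick limb, tubular injury, fibroblast and liver lists had 1 marker higher each, and adipocyte markers summed to 34.3 and 21.2 CPM against 0.55 to 5.89 CPM, with 0 called. Their part in the differences by format was not tested.

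The format effect was compared between the days in the same fit, and 2 members were called, against 17.6% of all genes (9.1% higher and 8.45% lower). For Lss the effect was lower at day 3 than at day 1 by 1.18 on the log2 scale (-1.18, SE 0.32, adjusted p = 0.0225). For Cyp51 it was higher by 1.93 (SE 0.55, adjusted p = 0.0289). Neither was called without day 1 replicate 1, day 1 replicate 2 or day 3 replicate 4, and Cyp51 was not called without day 1 replicate 3, day 1 replicate 5 or day 3 replicate 5. Hmgcs1 had a difference of 1.51 (SE 0.54, adjusted p = 0.0703) and passed without day 1 replicate 4 (1.72, adjusted p = 0.0485), day 3 replicate 1 (1.80, adjusted p = 0.0161) or day 3 replicate 4 (2.17, adjusted p = 0.0221), and with DESeq2 (1.54, adjusted p = 0.0211). In the same contrast 6 of 7 proximal tubule markers were called higher (median 2.89 on the log2 scale), and their part was not tested. For Sqle, higher in the 3-digit libraries on both days, the difference between the days was -0.21 (SE 0.42, adjusted p = 0.771).

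Each later day was also compared with day 0 by format, in 1 fit over all 14 libraries. In the 1-digit libraries of day 1, 6 members were lower (Hmgcs1, Sqle, Idi1, Lss, Cyp51 and Insig1) and Fdft1 was higher, against 58.5% of all genes called and 29.6% called lower. In the 3-digit libraries of day 1, 4 members were lower (Hmgcs1, Idi1, Cyp51 and Insig1), against 41.6% called and 19% called lower. Without day 1 replicate 1 only 2 of these 4 were called, and the values of Hmgcs1 (-1.32, adjusted p = 0.0823) and Idi1 (-1.68, adjusted p = 0.0872) did not pass. Sqle had a log2 fold change of -1.22 (SE 0.26, adjusted p = 0.00120) in the 1-digit libraries and -0.03 (SE 0.28, adjusted p = 0.950) in the 3-digit libraries. Srebf2 had 0.37 in the 1-digit libraries (SE 0.17, adjusted p = 0.0752), which passed without day 3 replicate 2 (adjusted p = 0.0125) or replicate 5 (0.41, adjusted p = 0.0406). Cyp51 had -1.75 (SE 0.33, adjusted p = 0.000565) and -3.16 (SE 0.42, adjusted p = 0.000114), respectively.

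In the 1-digit libraries of day 3, 4 members were lower (Hmgcs1, Sqle, Idi1 and Cyp51) and Fdft1 was higher, against 53.7% of all genes called and 25.1% called lower. Fdft1 there had a log2 fold change of 0.43 (SE 0.13, adjusted p = 0.0130) and did not pass without day 3 replicate 4 (0.34, adjusted p = 0.10). In the 3-digit libraries of day 3, 4 members were lower (Idi1, Lss, Cyp51 and Insig1), against 32.4% called and 13.3% called lower. Lss was lost in 5 of the 14 fits that left out 1 library (day 0 replicates 1, 2 and 4 and day 3 replicates 1 and 3), with unstranded counts (adjusted p = 0.0615) and with library totals (adjusted p = 0.103). Insig1 was lost without day 0 replicate 1 or 3 or day 3 replicate 1 or 3 and with library totals (adjusted p = 0.0531). Insig1 in the 1-digit libraries of day 3 (-0.46, adjusted p = 0.257) passed without day 3 replicate 4 (-1.24, adjusted p = 0.0166), a fit that leaves 1 such library. Srebf2 in the 3-digit libraries (-0.16, adjusted p = 0.511) passed without day 3 replicate 2 (-0.45, adjusted p = 0.0183). Hmgcs1 had -1.95 (SE 0.39, adjusted p = 0.00119) in the 1-digit libraries and -0.50 (SE 0.32, adjusted p = 0.239) in the 3-digit libraries of day 3. Idi1 and Cyp51 were the 2 members called lower than day 0 in both formats on both days, although Idi1 was not called in the 3-digit libraries of day 1 without day 1 replicate 1. Cyp51 was at 29.7% of day 0 in the 1-digit and 11.2% in the 3-digit libraries of day 1, and at 8.38% and 11.9% in those of day 3.

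**Figure D4:**
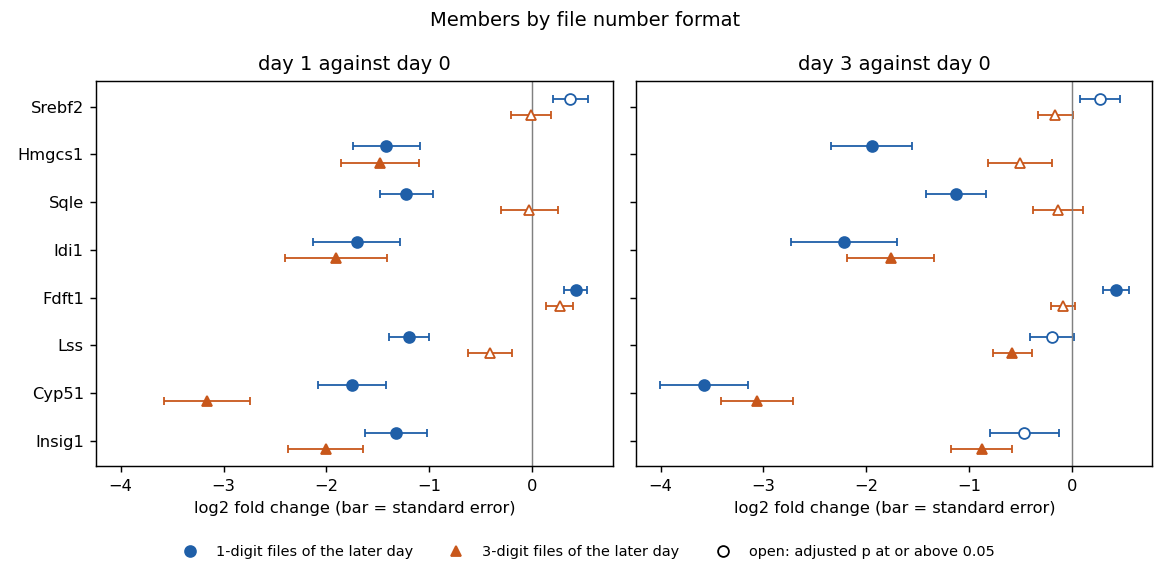
log2 fold change against day 0 of the 8 members at day 1 (left) and day 3 (right), separately for 1-digit (circles) and 3-digit (triangles) libraries of the later day. Bars are standard errors and open symbols have an adjusted p at or above 0.05. Idi1 and Cyp51 are filled for both formats on both days, and Sqle is filled for the 1-digit libraries only.

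Between day 1 and day 3 within a format, 2 members were called in the 1-digit libraries, against 32% of all genes (16.5% higher and 15.5% lower). Lss was higher at day 3 (log2 fold change 1.00, SE 0.23, adjusted p = 0.00522) and Cyp51 was lower (-1.83, SE 0.40, adjusted p = 0.00479). In the 3-digit libraries 0 members were called by edgeR's quasi-likelihood test, against 13.9% of all genes. In that fit 3 members had an unadjusted p under 0.05, as had 4229 of the 14300 genes, with log2 fold changes of 0.98 for Hmgcs1, -0.36 for Fdft1 and 1.13 for Insig1, and DESeq2 called 2 members.

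Among themselves, the members were compared by the mean absolute difference of their log2 levels, each centred on day 0, over the 14 libraries. The closest pair was Srebf2 and Fdft1 (0.20), followed by Sqle and Lss (0.38) and Hmgcs1 and Idi1 (0.49). The farthest pair was Fdft1 and Cyp51 (2.24), which encode enzymes of the same branch. Outside the members, 9620 genes with a mean of at least 10 CPM were compared with the members' mean in the same way. The 5 nearest were Ctdspl (0.12), Asb13 (0.13), Iqsec2 (0.15), Lmo7 (0.15) and Nadk2 (0.15). The 3 nearest to Srebf2 alone were Egfr (0.11), Rpap3 (0.12) and Imp4 (0.13).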

How the data were processed

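RNA sequencing covered 14 mouse kidney libraries (total RNA by TRIzol, Illumina TruSeq libraries). The processing notes name Trimmomatic, STAR and mm10, without versions or the annotation. The deposited files hold the authors' raw counts for each gene symbol, from uniquely mapped reads, unstranded and by strand. The reverse-strand column, with 98.5% to 98.75% of stranded reads, was used. Entries naming no gene (28.99% to 38.34%) were left out.

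The tests used edgeR 4.0.16 in R 4.3.3 (filterByExpr by day, TMM, quasi-likelihood test, 1 term per day, or per day and file number format). Changes were called at an adjusted p (Benjamini-Hochberg) under 0.05. The SE came from the F value. Log2 CPM used a prior count of 2. The scripts were tested on simulated data. limma 3.58.1 (voom), DESeq2 1.42.0, other scalings and filters, a replicate block and leaving out each library were alternatives. No 2 replicates were alike within counting error (lowest chi-square divided by its degrees of freedom, 5.691).

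All 8 members were named in full. Of each list, Insig2 and Srebf1 and the 2 called genes with the largest change were named, and others by counts, while some genes that the rule names are not reported here. Members, lists and tests were chosen with earlier results of these data known. Groups came from the labels, and the study's Supplemental Methods were not used here.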

Additional observations from a re-analysis of the deposited data

Results flagged for a closer look

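Of 81 groups of values tested for a sample standing apart, 6 had one, beside 4.05 that chance gives at 1 in 20. Hmgcs1 had 692 CPM in day 0 replicate 2, while the other day 0 libraries had 640 to 648 CPM. In day 0 replicate 4, Npc2 had 151 CPM (others 106 to 108), Scd1, the stearoyl-CoA desaturase, had 59.7 CPM (others 165 to 182), and Scd2 had 105 CPM (others 73.3 to 76.0). In that library adipocyte markers summed to 19.2 CPM (others 0.12 to 0.44), urothelium markers to 37.1 (1.12 to 7.02) and liver markers to 166 (38.4 to 52.1). Its chi-square divided by the degrees of freedom was 22.06 to 24.82 with the other day 0 libraries. Among those others it was 5.691 to 8.01. Abcg1, a sterol exporter, had 5.95 CPM in day 1 replicate 5 (others 3.61 to 4.02), and Nsdhl had 35.8 CPM in day 3 replicate 5 (others 59.3 to 64.7).

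The difference between 3-digit and 1-digit libraries itself differed between day 3 and day 1 for Lss (-1.18 on the log2 scale, adjusted p = 0.0225) and for Cyp51 (1.93, adjusted p = 0.0289), in edgeR's quasi-likelihood test. Neither was called without day 1 replicate 1, day 1 replicate 2 or day 3 replicate 4.

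In the strand column that no comparison used, reads over Fdft1 averaged 4.57 CPM at day 0, 18.9 CPM at day 1 (9.86 to 28.2) and 13.8 CPM at day 3 (5.07 to 22). Ctsb, whose exons overlap those of Fdft1 on the opposite strand, had 672 to 719 CPM at day 0, 1199 to 1379 CPM at day 1 and 832 to 1391 CPM at day 3. The source of these reads was not tested.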

How the results depend on the processing

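The calls of Hmgcs1, Idi1, Cyp51 and Insig1 at day 1 and of Idi1 and Cyp51 at day 3 against day 0 held under all 12 alternatives and in all 14 fits that left out 1 library. Lss at day 1 was lost with only the 3-digit files of the later days (-0.40, adjusted p = 0.169, range over alternatives 0.000112 to 0.169). The number of libraries limited the precision, and no 3-digit library was present at day 0. Library totals without TMM moved the median of all genes by 0.139 at day 3 against day 0 and by up to 0.218 in the comparisons by format, so small values there are relative to that shift. The cause of the changes below was not tested.

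Members called at day 1 against day 0 (5) were 8 with only 1-digit files. At day 3 against day 0 (2), they were 4 with file number format as a term, 5 with only 1-digit files and 4 with only 3-digit files of the later days. At day 3 against day 1 (1), they were 0 with RLE size factors, no filter, limma voom, only the 2 days compared or the replicate block, and 2 with DESeq2 or only 1-digit files. In the 3-digit files, members called at day 3 against day 0 (4) were 2 with library totals, and those at day 3 against day 1 (0) were 1 with library totals and 2 with DESeq2. Of the 21 enzymes, those called at day 3 against day 0 (9) were 17 with only 1-digit files. Those called at day 3 against day 1 (0) were 1 with unstranded counts, RLE, the stricter filter, limma voom, the replicate block or the format term, 3 with DESeq2, 7 with only 1-digit files and 3 with only 3-digit files. Hmgcs1 at day 3 against day 0 passed with DESeq2 (-0.94, adjusted p = 0.0378), limma voom (-1.20, adjusted p = 0.0352), the replicate block (-0.99, adjusted p = 0.0401), the format term (-1.45, adjusted p = 0.0152) and only 1-digit files (-1.93, adjusted p = 0.000754).

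Leaving out 1 library gave 5 to 6 members at day 1 and 2 to 3 at day 3 against day 0, and 0 to 1 at day 3 against day 1. For the 21 enzymes the ranges were 9 to 14, 6 to 11 and 0 to 3. By format, they were 0 to 4 members at day 1, 0 to 4 at day 3 and 0 to 3 for the difference. In the 1-digit files they were 7 to 8 at day 1 and 5 at day 3 against day 0, and 2 to 3 at day 3 against day 1. In the 3-digit files they were 2 to 4, 2 to 5 and 0 to 1.

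No value below was called where its sign differed from the main one, and none of these main values was called. Srebf2 at day 3 against day 0 was -0.011 without a filter, -0.018 with limma voom, -0.080 with the replicate block, -0.16 with only 3-digit files and -0.096 to 0.13 leaving out 1 library. Only 3-digit files also turned Srebf2 at day 1 (-0.0035), Fdft1 at day 3 (-0.087) and, at day 3 against day 1, Sqle (-0.11), Idi1 (0.14), Lss (-0.17) and Cyp51 (0.095). At day 3 against day 1, Hmgcs1 was -0.55 with only 1-digit files, Sqle -0.011 with the format term (-0.099 to 0.50 leaving out 1 library) and Idi1 0.026 with library totals (-0.51 to 0.058). Library totals also turned the format difference at day 1 of Hmgcs1 (0.16), Idi1 (0.024) and Fdft1 (0.053), and in the 3-digit files Srebf2 (0.098) and Sqle (0.084) at day 1 and Sqle (0.026) and Fdft1 (0.067) at day 3. Srebf2 at day 1 in the 3-digit files was 0.0022 with unstranded counts. Leaving out 1 library, the format difference at day 1 was -0.29 to 0.22 for Hmgcs1 and -0.52 to 0.13 for Idi1. At day 3 it was -0.14 to 0.89 for Idi1, -0.13 to 0.87 for Cyp51 and -0.94 to 0.37 for Insig1. Its difference between days was -0.35 to 0.16 for Srebf2, -0.47 to 0.12 for Sqle and -0.25 to 1.05 for Insig1. Against day 0, the 3-digit files gave -0.040 to 0.040 for Srebf2 and -0.35 to 0.20 for Sqle at day 1 and -0.40 to 0.11 for Sqle at day 3, and the 1-digit files gave -1.24 to 0.065 for Insig1 at day 3.

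Replicate numbers did not pair the libraries. Of 13 pairs with the same number, 4 had a correlation of their deviations over 0.1 (range -0.175 to 0.261), and 2 libraries correlated best with their own number. With the replicate block, 5 members were called at day 1 against day 0, 3 at day 3 against day 0 and 0 at day 3 against day 1.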

Other observations

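Fatty acid synthesis genes, which answer mainly to SREBP1, were read beside the sterol genes. Of 7 genes, 5 were lower and 0 higher at day 1, and 4 lower and 0 higher at day 3, beside 18.7% and 13.8% of all genes called lower. Scd1, which makes monounsaturated fatty acids, fell by 2.64 at day 1 (SE 0.43, adjusted p = 0.000411) and by 3.13 at day 3 (SE 0.43, adjusted p = 0.000207) on the log2 scale in edgeR's quasi-likelihood test, although 1 day 0 library had only 59.7 CPM. Its paralog Scd2 fell by 1.43 at day 1 (adjusted p = 0.00380; -0.84 and adjusted p = 0.0535 with only 3-digit files of the later days), and Fasn, the fatty acid synthase, fell by 1.08 at day 3 (adjusted p = 0.0170). Srebf1, the paralog of Srebf2, had 40.7 to 66.0 CPM at day 0 and 25.2 to 39.2 CPM at day 3, a fall of 0.80 on the log2 scale (SE 0.18, adjusted p = 0.00458). Its day 1 value was -0.36 (adjusted p = 0.120), and with only 3-digit files of the later days it was -0.55 and passed (adjusted p = 0.0438).

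Of 7 genes of the oxysterol receptors (LXR) and sterol efflux, 3 were lower and 0 higher at day 1 and likewise at day 3 (42.9% each). Of all genes, 18.7% and 13.8% were called lower, and 42.1% and 33.3% in either direction. In the 1-digit libraries 5 were lower and 1 higher on each day, beside 29.6% and 25.1% of all genes lower and 28.9% and 28.6% higher. In the 3-digit libraries 3 were lower on each day, with 0 higher at day 1 and 1 at day 3. There 19% and 13.3% of all genes were lower and 22.6% and 19.1% higher. Abcg1 fell on both days, with a log2 fold change of -1.63 at day 1 (SE 0.26, adjusted p = 0.000342) and -1.53 at day 3 (SE 0.26, adjusted p = 0.000751), and Abca1, the cholesterol exporter, fell by 1.42 at day 1 (SE 0.30, adjusted p = 0.00227). Abca1 at day 3 had 15.3 to 54.0 CPM and a log2 fold change of -0.40 (adjusted p = 0.308), and with only 1-digit files the value was -1.22 and passed (adjusted p = 0.00505). Nr1h3, which encodes LXR alpha, fell by 1.25 at day 3 (SE 0.32, adjusted p = 0.00905).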
